A study of Mus musculus with 12 samples.

Results

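Loss of the histone deacetylase gene Hdac3 was examined in resting mouse macrophages, as the difference between 3 arrays of untreated Hdac3 -/- cells and 3 arrays of untreated Hdac3 +/- cells. These 6 of the 12 arrays of the study were chosen by their titles, and every gene of the deposited value table with a single symbol was compared, each by its brightest probe set, which gave 19945 genes. The cells were primary bone marrow-derived macrophages from C57BL/6 mice on day 7 of culture in L929-conditioned medium, a source of the growth factor CSF1. The +/- cells, which the submitters call wild type, keep 1 Hdac3 allele, so by the labels the comparison is between cells with 1 allele and cells with none. The labels state neither how the gene was deleted, nor in which cells, nor the age of the mice. The other 6 arrays hold the same genotypes after lipopolysaccharide (LPS, a bacterial cell wall component) at 100 ng/ml for 4 h, and are used here to ask whether the untreated differences were also present then and, through a model fitted to all 12 arrays, to estimate each gene's spread. The labels do not tie the 3 arrays of a group to separate animals. A p-value here therefore weighs a difference against the spread of these arrays alone, which may be technical, and precision is limited by having 3 arrays per group.

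HDAC3 removes acetyl groups from histones and other proteins and is the catalytic subunit of the NCoR and SMRT corepressor complexes, which many transcription factors bring to their target genes. Macrophages keep a low level of type I interferon signalling even at rest, in which the receptor IFNAR activates the factor ISGF3 and this factor drives antiviral genes. The factor NRF2, encoded by Nfe2l2, drives genes of glutathione synthesis, detoxification and iron storage when oxidants or electrophiles release it from KEAP1.

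Values are log2 signals, on which 1 unit is 2-fold, and signals of different genes are not compared. Differences are Hdac3 -/- minus +/- with ± 1 SE of the limma model and n = 3 arrays per group. A gene is said to have risen or fallen, or to be called, when its adjusted p was under 0.05 over all 19945 genes. Arrays are named by genotype and replicate number, and are untreated unless LPS is named. Where leaving out 1 array ended a gene's call, those arrays are named or counted beside it.

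Hdac3 itself was checked first. Its signal was 9.42, 9.10 and 8.98 in +/- arrays and 7.39, 7.53 and 7.39 in -/- arrays. All 3 -/- arrays were below all 3 +/- arrays, with a difference of -1.74 ± 0.153, adjusted p = 1.66e-05. The -/- signals stayed near the upper quartile of those arrays (7.39 to 7.46), and how complete the deletion was is not stated. Where the deletion lies is unstated in the labels, and a probe outside it would check nothing. Of 21 measured deacetylases and NCoR/SMRT components only Hdac3 was called. Tbl1x, a core subunit of the complex, was at 0.82 (adjusted p = 0.0578).

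The arrays otherwise separated by genotype. The median log2 signal of an array lay between 5.19 and 5.37 over the study, and the first principal component of the 6 arrays held 41.4% of the variance and separated the genotypes, whereas on the second, with 28.7%, they overlapped. Macrophage markers such as Csf1r and Cd68 had a mean signal of 11.16 to 11.42 per +/- array and 11.25 to 11.45 per -/- array. Of the 13 measured, Lyz1 rose (1.92) and Fcgr1 fell (-1.45), both under all 24 alternative settings, and the list mean does not show such opposite changes. Lists of markers of 10 other cell types had mean signals of 3.63 to 5.94 in +/- and 3.65 to 6.06 in -/- arrays. Among the 13 neutrophil markers Ngp fell (-1.18, adjusted p = 0.0428), and S100a8 was at 2.04 (adjusted p = 0.261). Among 8 B cell markers Cd79b fell (-0.60, adjusted p = 0.0359), and among 9 osteoclast markers Ctsk rose (2.44). The calls of Ngp and Cd79b ended without any 1 of the 6 untreated arrays, and without some of the LPS arrays. In RNA of whole cultures fewer cells of a type and less RNA per cell cannot be told apart, and the part of other cells in the results was not tested. +/- array 1 and its LPS counterpart carried Y-linked signal (Uty 7.62 against 2.54 to 3.05 in the other untreated arrays) and little Xist, and the 10 other arrays did not. Counts without these 2 arrays are given beside the main counts and the lists of receptors, lectins, lipid handling, glutathione, NRF2 and MHC class II. Among the LPS-inducible cytokines, enzymes and early factors 3 genes rose without these 2 arrays, in place of 1. In the remaining lists a change of over 1.5 times was to counts of 0 to 2 genes.

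In untreated macrophages 531 of 19945 genes, or 2.66%, differed between the genotypes. The 243 genes that rose in -/- cells were 1.22% of those tested, and the 288 that fell were 1.44%. The largest differences were falls. By at least 2-fold 98 genes rose and 164 fell, by at least 4-fold 22 and 58, and by at least 8-fold 3 and 23. The median difference was 0.91 among the genes that rose, -1.11 among those that fell and 0.01 over all genes. In each called gene the 3 arrays of one genotype lay apart from the 3 of the other. Over all genes, arrays lay apart in this way for 9.64% with -/- higher and for 8.35% with -/- lower. Bright genes were called more often than dim ones, from 0.120% of the 4987 dimmest genes to 6.04% of the 4986 brightest. Leaving out -/- array 1 left 99 higher and 167 lower genes, and leaving out +/- array 1 left 146 higher. Without the 2 arrays with Y-linked signal 156 were higher and 234 lower. With the 6 untreated arrays fitted alone 135 were higher and 186 lower, and 27 of the 97 called genes that the naming rule took were not called. Of the genes called with all arrays, 93 higher and 147 lower ones were called without any 1 of the 12 arrays.

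**Figure D1:**
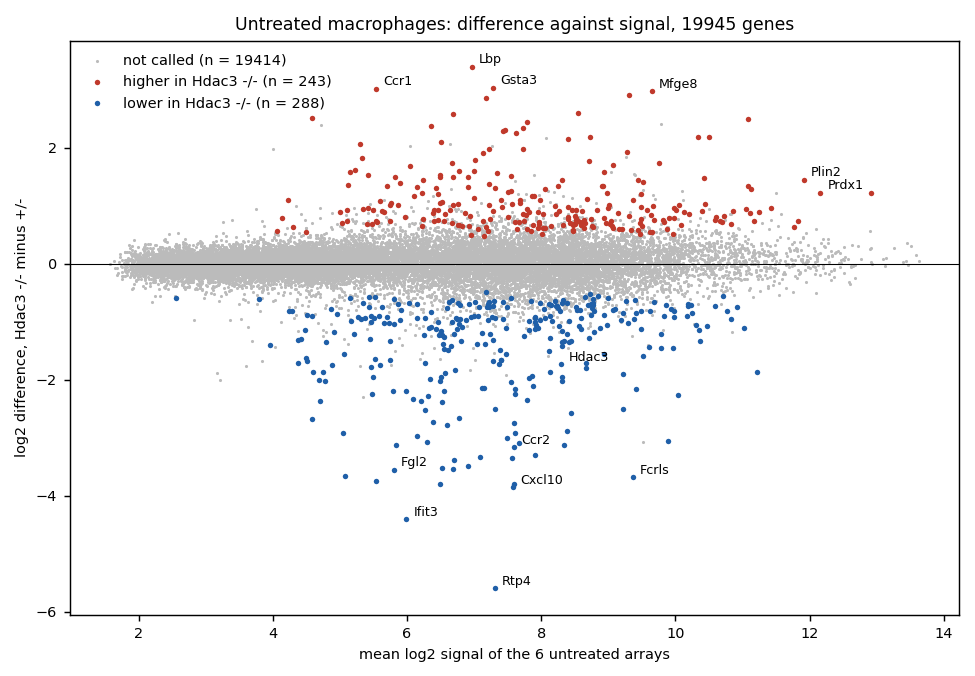
Log2 difference of untreated Hdac3 -/- minus +/- arrays (vertical axis) against the mean log2 signal of the 6 untreated arrays (horizontal axis), 1 point per gene, for 19945 genes. The 243 genes that rose are red and the 288 that fell are blue; the falls reach -5.59 (Rtp4) and the rises 3.39 (Lbp).

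Genes of the interferon system were lower in -/- arrays: of 91 different genes in 6 lists 48 fell and 1 rose, with a median difference of -1.15 over all 91. The 48 had a mean signal of 8.08, 8.25 and 8.08 in +/- arrays and 5.72, 5.39 and 5.91 in -/- arrays. The count of 48 lay between 47 and 52 under every one of 24 other settings. It is a description of lists chosen with earlier results of these data known, and is no test of the pathway.

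Rtp4, an interferon-induced membrane protein that restrains viral RNA replication, had the largest difference of any gene. Its signal was 10.04, 10.29 and 9.99 in +/- arrays and 4.49, 3.88 and 5.16 in -/- arrays, a difference of -5.59 ± 0.258, adjusted p = 1.17e-07. The +/- arrays lay close together, and the lowest of them stood far above the highest -/- array. Ifit3, a member of the IFIT proteins that bind viral RNA, was at 8.48, 8.45 and 7.64 in +/- arrays and 3.49, 3.16 and 4.71 in -/- arrays (-4.40 ± 0.332, adjusted p = 3.83e-06). Its relative Ifit1, which recognises RNA lacking the host cap modification, was at 8.43, 8.57 and 7.83 in +/- arrays and 4.80, 4.13 and 5.34 in -/- arrays (-3.52 ± 0.258, adjusted p = 3.02e-06). In both genes -/- array 2 was the lowest and -/- array 3 the highest of the -/- arrays, and no -/- array reached any +/- array. Ifit2 was at -3.34 ± 0.277.

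Of 28 measured genes in the list of Ifit, Ifi and Isg effectors 20 fell, with a list median of -2.14. Samd9l, which restricts translation and viral growth, was at 8.22, 8.25 and 8.70 in +/- arrays and 4.52, 4.39 and 4.88 in -/- arrays (-3.79 ± 0.182, adjusted p = 1.17e-07). Ifi27l2a was at -3.49 ± 0.191, with the -/- arrays close together. The dynamin-like GTPase genes Mx1 (-2.92) and Mx2 (-2.68) and Rsad2, the viperin gene (-2.92), fell as well. The smallest fall in this list was that of Ifi35 (-0.95). Ifi27 was the single member that rose. Its signal was 8.51, 8.11 and 8.26 in +/- arrays and 9.03, 9.0 and 8.98 in -/- arrays, a difference of 0.71 ± 0.131, adjusted p = 0.00851, and the call ended without -/- array 1.

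The 2'-5' oligoadenylate synthetases make a second messenger of antiviral defence when they bind double-stranded RNA. Of the 9 measured genes in the list built around the Oas and Oasl families 7 fell. Oasl2, a family member that acts on nucleic acid sensing, was at 9.31, 9.73 and 9.44 in +/- arrays and 6.04, 4.75 and 6.28 in -/- arrays (-3.80 ± 0.301, adjusted p = 6e-06). Oas2 was at -3.38 ± 0.239, Oas3 at -3.34 ± 0.223 and Oas1a at -2.34 ± 0.175. For each of these 4 genes -/- array 2 was the lowest of the 6 arrays.

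Guanylate-binding proteins and immunity-related GTPases attack the membranes of vacuoles that hold microbes. Of 10 measured genes 7 fell, with a median of -1.69. Gm4951, a predicted member of this family, was at 7.64, 7.53 and 7.07 in +/- arrays and 3.86, 3.42 and 3.71 in -/- arrays (-3.75 ± 0.198, adjusted p = 1.73e-07). Gbp3 was at -2.33 ± 0.196, Gbp9 at -2.25 ± 0.260, Irgm1 at -2.03 ± 0.183 and Iigp1 at -2.01 ± 0.300. Of the 8 measured PYHIN genes, which encode DNA-binding proteins of the Ifi200 family, 3 fell: Ifi209 (-3.66 ± 0.335), Ifi203 (-3.30 ± 0.216) and Ifi207 (-1.90 ± 0.138). The 5 others were negative but were not called. These families hold near-identical copies, and RNA of one copy can bind the probes of another.

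Of 17 nucleic acid sensors 7 fell. They were the RNA helicases Ddx60 (-2.97 ± 0.206), Ddx58, which encodes RIG-I (-2.58 ± 0.187), Ifih1, which encodes MDA5 (-1.67 ± 0.190) and Dhx58 (-1.24 ± 0.212), the nucleic acid sensor Zbp1 (-2.36 ± 0.212), the RNA editing enzyme Adar (-1.22 ± 0.144) and the kinase gene Eif2ak2, which encodes PKR (-1.15 ± 0.154). RIG-I was read from signals of 9.45, 9.94 and 9.80 in +/- arrays and 7.22, 6.80 and 7.43 in -/- arrays, with no overlap.

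Of 20 genes of interferon receptors, JAK-STAT signalling and IRF factors 5 fell and 15 were not called, with a list median of -0.10. Irf7, the factor that amplifies interferon production, was at 8.93, 9.20 and 8.87 in +/- arrays and 6.26, 5.40 and 6.33 in -/- arrays (-3.0 ± 0.209, adjusted p = 2.14e-06). Usp18, the enzyme that removes ISG15 and damps signalling at IFNAR, was at 8.62, 8.85 and 7.88 in +/- arrays and 4.86, 4.63 and 5.23 in -/- arrays (-3.54 ± 0.231, adjusted p = 1.31e-06). Of the ISGF3 genes Stat2 was at -1.80 ± 0.197 and Irf9 at -0.96 ± 0.160. Irf1 fell by less (-0.92 ± 0.210), and its call ended without +/- array 2, +/- array 3, -/- array 1 or -/- array 2. The receptor gene Ifnar1 was at -0.05 ± 0.166 (adjusted p = 0.953) and the factor gene Irf3 at 0.14 ± 0.140 (adjusted p = 0.793). The interferon gene Ifnb1 had signals of 3.99, 4.08 and 3.48 in +/- arrays and 3.70, 4.25 and 3.75 in -/- arrays, with overlapping groups (adjusted p = 0.967). These values lie near the lower quartile of all probe sets on the arrays.

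**Figure D2:**
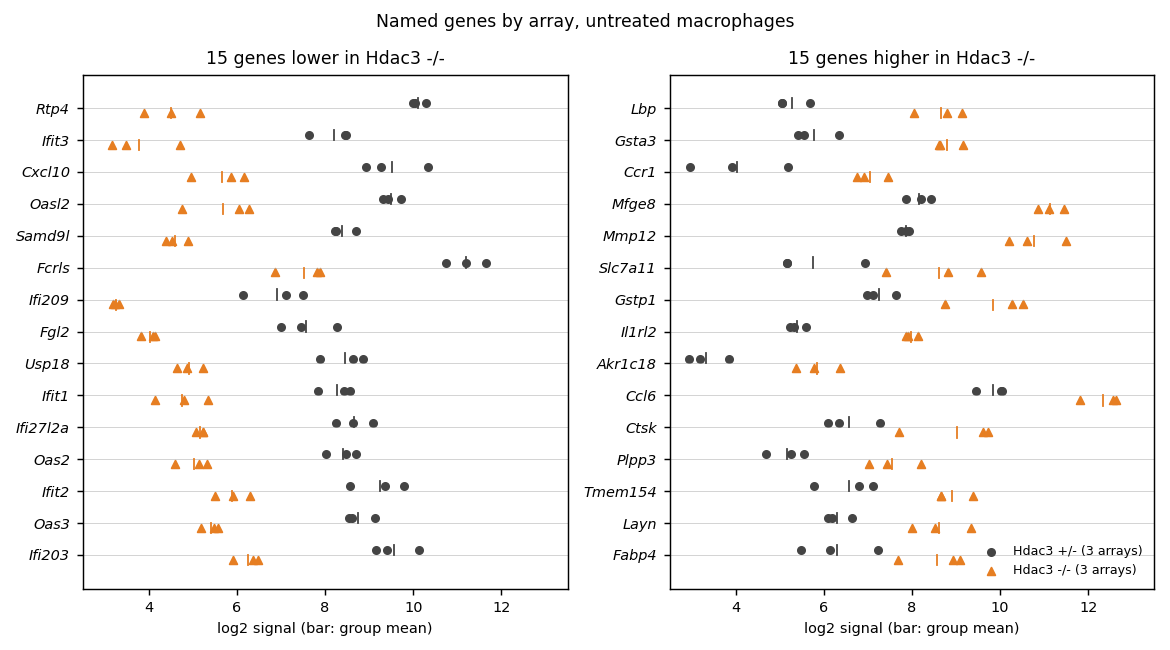
Log2 signal of each untreated array (horizontal axis) for the 15 genes with the largest falls (left) and the 15 with the largest rises (right) that the naming rule took; circles are the 3 Hdac3 +/- arrays, triangles the 3 -/- arrays and short bars the group means. The groups lie apart in every gene, from 10.1 against 4.51 for the means of Rtp4 to 6.29 against 8.57 for those of Fabp4.

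The promoters of the genes that fell were read for the letters of the interferon-stimulated response element (ISRE), the sequence that ISGF3 binds. The searched letters were GAAA, any 2 bases and GAAA again, on either strand, in the 250 bases before each start site of the RefSeq table (GRCm38.p6). A promoter was held for 231 of the 288 genes that fell (80.2%), and 36 of them (15.6%) held a match. Among the genes that fell by at least 2-fold 28 of 135 (20.7%) held one. Over all tested genes with a promoter 529 of 15567 did (3.40%), and per promoter the share was 2.86%. Of the 48 interferon genes that fell 36 had a promoter and 18 of these held a match (50.0%). The share of genes with a promoter was under 80% for those 48 and for all tested genes (78.0%), so a comparison of these shares is void and they are given as descriptions. Promoters of the genes that fell by at least 2-fold had a median GC content of 50.0% against 56.6% over all genes, and the part of base composition in these shares was not tested. A match was held by 5 of the 11 named genes of the largest falls that have a RefSeq promoter, namely Ifit3, Ifit1, Cxcl10, Oas3 and Ifi203. The 4 sequences here are shown because they belong to genes among the largest falls; each is 120 bases, 5' to 3' on the gene's strand, with the ISRE letters in capitals (TTTC runs are the element on the other strand).

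Ifit3, GRCm38.p6 chr19:34583335-34583454 + strand: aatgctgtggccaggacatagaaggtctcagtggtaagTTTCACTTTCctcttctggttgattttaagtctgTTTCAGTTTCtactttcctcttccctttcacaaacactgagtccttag
Ifit1, GRCm38.p6 chr19:34640739-34640858 + strand: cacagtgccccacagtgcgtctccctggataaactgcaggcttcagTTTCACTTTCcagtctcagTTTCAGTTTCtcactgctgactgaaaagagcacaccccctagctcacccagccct
Cxcl10, GRCm38.p6 chr5:92349020-92349139 - strand: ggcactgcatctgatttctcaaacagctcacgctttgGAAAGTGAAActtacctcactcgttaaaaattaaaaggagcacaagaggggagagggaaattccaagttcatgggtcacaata
Oas3, GRCm38.p6 chr5:120777670-120777789 - strand: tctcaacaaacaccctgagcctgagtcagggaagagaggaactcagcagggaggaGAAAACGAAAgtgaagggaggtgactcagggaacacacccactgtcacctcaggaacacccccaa

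Ifit3 and Ifit1 each held 2 matches, at 156 and 122 bases before the start in Ifit3 and at 104 and 85 in Ifit1. Cxcl10 held its match at 213 bases and Oas3 at 75. The match is a description of letters, not of binding, and the signals of these genes fell by 3.34 to 4.40 on the log2 scale.

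Chemokines and their receptors did not move as a group, but single genes moved far. Cxcl10, an interferon-induced chemokine that draws T cells, was at 10.34, 8.92 and 9.27 in +/- arrays and 5.86, 4.96 and 6.16 in -/- arrays (-3.85 ± 0.324, adjusted p = 1.03e-05). Ccl6, a chemokine made by myeloid cells, was at 9.45, 10.05 and 10.01 in +/- arrays and 12.64, 11.81 and 12.56 in -/- arrays (2.50 ± 0.301, adjusted p = 0.000316). They were the only 2 of 30 chemokine genes that were called, 1 in each direction, and the list median was -0.00. Cxcl10 had no +/- array under 8.92 and no -/- array over 6.16, and Ccl6 had no -/- array under 11.81 and no +/- array over 10.06.

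Of 17 receptors for chemokines, complement and leukotrienes 4 fell and 1 rose. The 4 were 2 with the untreated arrays fitted alone, without the arrays with Y-linked signal, or without any 1 of +/- array 1, +/- array 3, -/- array 1 and -/- array 3. Ccr2, the receptor that takes monocytes out of the marrow, was at 8.51, 9.11 and 9.92 in +/- arrays and 6.17, 5.04 and 6.83 in -/- arrays (-3.17 ± 0.411, adjusted p = 0.000603). Ccr1, a receptor for several inflammatory CC chemokines, went the other way, at 3.91, 2.98 and 5.18 in +/- arrays and 6.75, 7.47 and 6.91 in -/- arrays (3.02 ± 0.496, adjusted p = 0.00384). The highest +/- array of Ccr1 was array 3, and it was still below the lowest -/- array. Cxcr3, the receptor of CXCL10, was at -1.33 ± 0.208. Cx3cr1, the fractalkine receptor, was at 10.02, 8.31 and 9.61 in +/- arrays and 6.76, 8.19 and 6.93 in -/- arrays (-2.02 ± 0.450, adjusted p = 0.0269). For Cx3cr1 both arrays numbered 2 lay close together, and the call ended without +/- array 1, +/- array 3, -/- array 1 or -/- array 3. So did that of the complement receptor gene C5ar2 (-0.65 ± 0.130, adjusted p = 0.0138).

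Surface receptors of other families fell or rose gene by gene. Of 13 Fc receptors and Fc receptor-like genes 4 fell and 1 rose. Fcrls, an Fc receptor-like gene of resident macrophages and microglia, was bright in +/- arrays and had the largest fall outside the interferon lists apart from Cxcl10, at 11.20, 10.74 and 11.66 in +/- arrays and 6.87, 7.89 and 7.81 in -/- arrays (-3.68 ± 0.429, adjusted p = 0.000238). Its genomic neighbour Fcrl1 was at -1.66 ± 0.217, and Fcgr1, the high-affinity IgG receptor, at -1.45 ± 0.188. Fcgr2b, the inhibitory IgG receptor, was the one that rose (1.34 ± 0.311, adjusted p = 0.0341), and its call ended without +/- array 1, +/- array 2, -/- array 2, -/- array 3, -/- LPS array 1 or -/- LPS array 3.

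Of 15 genes of the Ms4a family, which encode membrane proteins with 4 membrane passes, 4 fell and none rose. Ms4a4c was at 7.72, 7.80 and 7.95 in +/- arrays and 4.52, 4.44 and 5.32 in -/- arrays (-3.06 ± 0.280, adjusted p = 2.3e-05), Ms4a6b at -2.51 ± 0.277, Ms4a6c at -2.26 ± 0.206 and Ms4a6d at -0.69 ± 0.155. For Ms4a6d the call ended without +/- array 3, -/- array 1 or -/- array 3. The other 11 members were not called, with 6 negative and 5 positive differences.

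Of 22 C-type lectin receptors 4 fell and 2 rose. With the untreated arrays fitted alone 2 fell and 0 rose. The 2 higher were 0 without +/- array 1 or -/- array 1, and 1 without -/- array 3 or without the arrays with Y-linked signal. Clec4a3 was at -2.24 ± 0.401, Clec4b1 at -1.40 ± 0.224 and Clec12a, an inhibitory receptor for uric acid crystals, at -1.32 ± 0.224. With the untreated arrays alone neither Clec4a3 (adjusted p = 0.0524) nor Clec12a (adjusted p = 0.0532) was called. Clec4n, which encodes the fungal sensor dectin-2, was at 8.27, 9.93 and 10.05 in +/- arrays and 11.70, 11.23 and 11.87 in -/- arrays (2.19 ± 0.474, adjusted p = 0.0233). The Clec4n call ended without +/- array 1, -/- array 1 or -/- array 3. The other riser was Clec4d (0.95 ± 0.191, adjusted p = 0.0148), whose call ended without +/- array 1 or -/- array 1. The fourth to fall was Clec4a2 (-1.15 ± 0.258, adjusted p = 0.0279), whose call ended without +/- array 1, +/- array 3, -/- array 1 or -/- array 2.

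In the sensing of LPS and other bacterial products 1 of 24 genes rose and 2 fell. Lbp, the LPS-binding protein that hands LPS to CD14, had the largest rise of all genes. Its signal was 5.06, 5.70 and 5.06 in +/- arrays and 8.80, 8.06 and 9.14 in -/- arrays, a difference of 3.39 ± 0.281, adjusted p = 9.6e-06. No -/- array was below 8.06 and no +/- array was above 5.70. Tlr1, the partner of TLR2 for bacterial lipopeptides, was at 8.81, 8.38 and 9.29 in +/- arrays and 6.86, 6.62 and 7.18 in -/- arrays (-1.94 ± 0.235, adjusted p = 0.000336). Ly86, which encodes MD-1, the partner of RP105, was at -1.21 ± 0.272 and its call ended without +/- array 2, +/- array 3, -/- array 1 or -/- array 2.

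Of 18 genes of the MHC class I pathway 4 fell and none rose, with a median of -0.48; with the untreated arrays alone 2 fell. They were the peptide transporter Tap1 (9.15, 9.03 and 8.90 in +/- arrays and 7.75, 7.57 and 7.51 in -/- arrays; -1.42 ± 0.155, adjusted p = 0.000138), the immunoproteasome subunits Psmb9 (-1.18 ± 0.122) and Psmb8 (-0.72 ± 0.137) and the class I gene H2-Q4 (-1.13 ± 0.237). Tap1 and Psmb9 were called without any 1 array. The Psmb8 call ended without +/- array 1 or -/- array 3, and the H2-Q4 call without +/- array 3 or -/- array 2. Of 22 genes of class II presentation and costimulation Cd276, a checkpoint ligand, rose (1.03 ± 0.189, but adjusted p = 0.0538 with the untreated arrays alone) and the 21 others were not called, with a median of -0.16 over the list. Without the arrays with Y-linked signal, or with sex as a term, 4 of the 22 fell.

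Further falls came from other lists or from none. Fgl2, a fibrinogen-like protein with prothrombinase activity, was at 8.26, 7.00 and 7.45 in +/- arrays and 4.11, 3.83 and 4.14 in -/- arrays (-3.55 ± 0.478, adjusted p = 0.000824). Ch25h, which makes 25-hydroxycholesterol and is itself induced by interferon, was at 9.19, 6.61 and 6.39 in +/- arrays and 3.71, 5.67 and 3.42 in -/- arrays (-3.13 ± 0.692, adjusted p = 0.0256). The spread of Ch25h was wide in both groups, with +/- array 1 and -/- array 2 the highest of theirs, and the call ended without +/- array 1, -/- array 1 or -/- array 3. Ndrg1, a hypoxia-responsive gene, was at -1.96 ± 0.343 (adjusted p = 0.0659 with the untreated arrays alone), and was the only one called of the 22 listed for glycolysis and hypoxia. Axl, a receptor for apoptotic cells, was at -1.09 ± 0.218, Alox5, the 5-lipoxygenase that starts leukotriene synthesis, at -1.11 ± 0.255, and Mmp14, a membrane-bound collagenase, at -0.94 ± 0.191. The Axl call ended without +/- array 3 or -/- array 1, the Alox5 call without +/- array 1, +/- array 2, +/- array 3, -/- array 2 or -/- array 3 and the Mmp14 call without +/- array 1, -/- array 1 or -/- array 2.

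Of 57 different genes in 3 lists of glutathione and the NRF2 response 20 rose and 0 fell in limma (0 at an unadjusted p under 0.05 as well), with a median difference of 0.61. The 3 arrays of each genotype lay apart for 31 of the 57 with -/- higher and for none with -/- lower. Over all genes they did so for 9.64% and 8.35% in turn. The 20 genes had a mean signal of 7.74, 8.12 and 7.83 in +/- arrays and 9.76, 9.01 and 9.49 in -/- arrays. +/- array 2 was thus the highest of its group and -/- array 2 the lowest of its own. The count was 12 without -/- array 1, 13 without +/- array 1 and 11 without the 2 arrays with Y-linked signal or with the untreated arrays fitted alone. These lists too were chosen with earlier results known, and the count is no test of the pathway.

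In glutathione synthesis and recycling 4 of 12 genes rose. Slc7a11, the cystine importer that supplies the cysteine for glutathione, was at 5.18, 6.93 and 5.16 in +/- arrays and 9.57, 7.42 and 8.83 in -/- arrays (2.85 ± 0.520, adjusted p = 0.00789). Array 2 was the highest +/- and the lowest -/- array, so that the groups came close there without overlap. Gclc and Gclm, the catalytic and the modifier subunit of the rate-limiting ligase of glutathione synthesis, were at 1.76 ± 0.310 and 1.48 ± 0.213. Gsr, the reductase that recycles oxidised glutathione, was at 9.07, 8.88 and 8.73 in +/- arrays and 11.09, 10.20 and 10.62 in -/- arrays (1.74 ± 0.215, adjusted p = 0.000397). With the untreated arrays fitted alone Slc7a11 and Gclc were not called (adjusted p = 0.0668, within 0.000483 to 0.0668 over 24 alternatives, and adjusted p = 0.0527, within 0.000949 to 0.0527).

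Of 20 glutathione transferases, which couple glutathione to electrophiles, 7 rose, and 4 did so without -/- array 1 or without the arrays with Y-linked signal. Gsta3 was at 5.41, 6.34 and 5.56 in +/- arrays and 9.16, 8.61 and 8.63 in -/- arrays (3.03 ± 0.292, adjusted p = 4.15e-05) and Gstp1 at 6.99, 7.63 and 7.12 in +/- arrays and 10.51, 8.75 and 10.26 in -/- arrays (2.60 ± 0.420, adjusted p = 0.00344). The groups stood far apart for Gsta3, whereas -/- array 2 of Gstp1 came nearer to +/- array 2. Gstm5 was at 1.54 ± 0.253, Gstk1 at 1.30 ± 0.177, Mgst2 at 1.91 ± 0.360, Mgst1 at 1.20 ± 0.288 and Gsta4 at 0.94 ± 0.199. The Mgst2 call ended without -/- array 1, the Gsta4 call without +/- array 1, +/- array 3 or -/- array 1 and the Mgst1 call without +/- array 1, +/- array 3, -/- array 1, -/- array 3, -/- LPS array 1 or -/- LPS array 3. Transferases of one class are close in sequence, and their signals may not be fully separate.

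Of 25 genes of NRF2-dependent reductases and of heme, iron and NADPH metabolism 9 rose. Prdx1, a peroxiredoxin that reduces hydrogen peroxide, was bright and even, at 11.48, 11.55 and 11.61 in +/- arrays and 12.80, 12.74 and 12.78 in -/- arrays (1.23 ± 0.123, adjusted p = 6.14e-05). Hmox1, which breaks down heme, was at 10.72, 10.18 and 10.55 in +/- arrays and 11.87, 11.95 and 11.47 in -/- arrays (1.28 ± 0.223, adjusted p = 0.00575), and Srxn1, which repairs overoxidised peroxiredoxins, at 1.59 ± 0.281 (adjusted p = 0.0678 with the untreated arrays alone). Nfe2l2, which encodes NRF2 itself, was at 10.03, 10.64 and 10.55 in +/- arrays and 11.35, 10.98 and 11.64 in -/- arrays (0.92 ± 0.187, adjusted p = 0.0173), and its call ended without +/- array 1, -/- array 1 or -/- array 3. The quinone reductase Nqo1 was at 5.69, 5.97 and 5.71 in +/- arrays and 8.23, 6.65 and 7.73 in -/- arrays (1.74 ± 0.399, adjusted p = 0.0311). The Nqo1 call ended without +/- array 1, +/- array 2, +/- array 3, -/- array 1, -/- array 3 or -/- LPS array 1, and that of the biliverdin reductase gene Blvrb (1.01 ± 0.226) without +/- array 1, +/- array 3, -/- array 1 or -/- array 3. Ftl1, the ferritin light chain, was at 0.97 ± 0.180. Keap1 was at -0.18 ± 0.182 and Txnrd1, the thioredoxin reductase, at 0.36 ± 0.176, and neither was called (adjusted p = 0.806 and 0.435). Osgin1 and Taldo1 were the smallest of the 9, at 0.66 ± 0.153 and 0.70 ± 0.161, and lost their calls with 6 and 7 of the single arrays left out. The list's count of 9 was 4 without -/- array 1, -/- array 3 or +/- array 1, 5 without +/- array 3, 4 with the untreated arrays alone and 3 without the arrays with Y-linked signal.

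**Figure D3:**
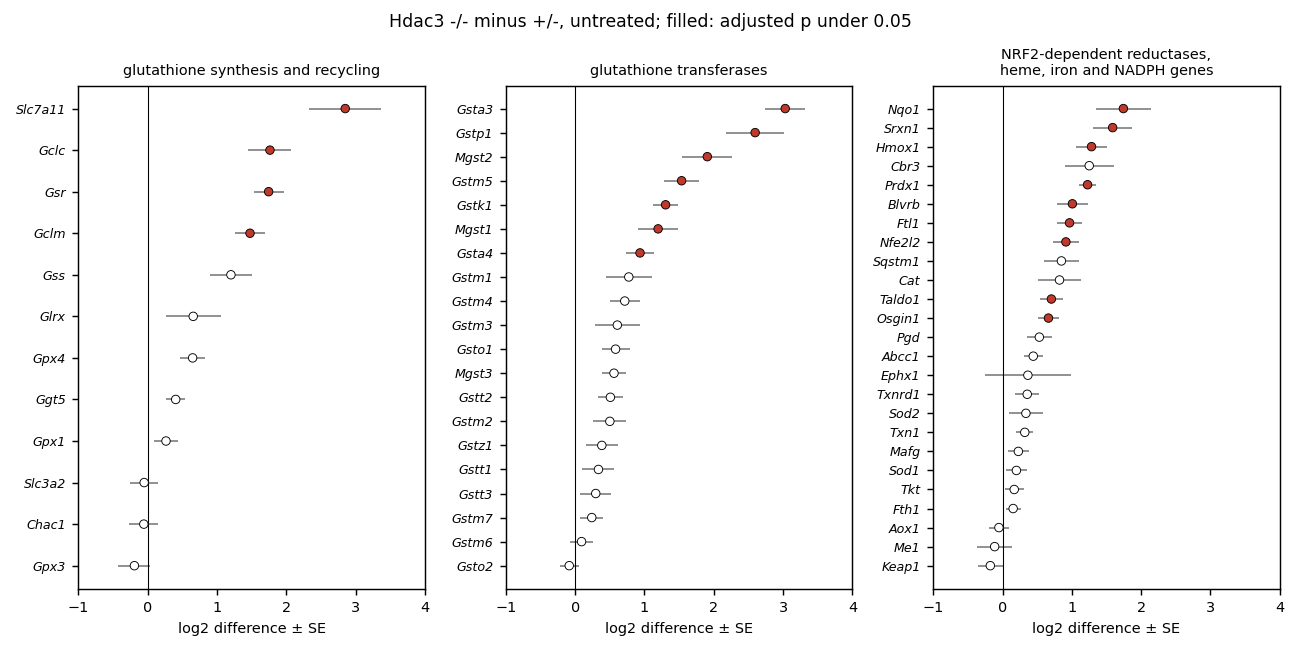
Log2 difference of untreated Hdac3 -/- minus +/- (horizontal axis, ± 1 SE of the limma model, 3 arrays per group) for each measured gene of the 3 lists of glutathione and NRF2-dependent genes; filled points passed an adjusted p of 0.05. All 20 filled points are to the right of 0, and the lowest member of any list, Gpx3, lies at -0.19.

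Of 10 aldo-keto reductases, which reduce aldehydes and ketones, Akr1c18 alone rose, from signals of 3.19, 3.86 and 2.94 in +/- arrays and 6.37, 5.36 and 5.78 in -/- arrays (2.51 ± 0.352, adjusted p = 0.00119). Its +/- arrays were below 3.995, the highest lower quartile of any array, so the size of the rise depends on a dim baseline.

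NRF2 binds the antioxidant response element (ARE), searched as TGACNNNGC on either strand in the same 250 bases. Promoters were held for 194 of the 243 genes that rose (79.8%), under the 80% needed, so the comparison is void; 22 of them (11.3%) held an ARE match against 12.5% of all tested genes with a promoter. An ARE match was in 10.8% of all promoters read, and 0.392% held one that overlapped the AP-1 letters TGANTCA. Gsta3 and Gclm are shown because they rose and each holds 1 match, at 121 and 134 bases before the start, in capitals; each sequence is 120 bases, 5' to 3' on the gene's strand.

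Gsta3, GRCm38.p6 chr1:21240408-21240527 + strand: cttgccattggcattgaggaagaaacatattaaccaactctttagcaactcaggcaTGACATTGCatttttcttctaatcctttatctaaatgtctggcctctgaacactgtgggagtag
Gclm, GRCm38.p6 chr3:122245367-122245486 + strand: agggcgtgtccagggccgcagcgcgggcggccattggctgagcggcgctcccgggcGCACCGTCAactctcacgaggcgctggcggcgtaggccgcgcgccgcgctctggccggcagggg

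In Gclm the letters lie on the other strand. No match was found for Nqo1 and Srxn1. Txnrd1, which was not called, also held a match, at 92 bases before a start site. Of the 13 named genes of the largest rises that have a promoter in the table, Gsta3 was the 1 with a match, and a missing match says only that the letters are not in this window.

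Genes of lipid handling moved in both directions, with 5 of 25 higher and 2 lower. The 5 were 1 without -/- array 1, 3 without -/- array 3 and 2 with the untreated arrays alone. The 2 lower genes were Ch25h and Pparg. Their count was 0 without -/- array 1, without the arrays with Y-linked signal or with the untreated arrays alone. It was 1 without +/- array 1 or +/- array 3. Without -/- array 3 neither was called, and the 1 lower gene there was another member. Plin2, which coats lipid droplets, was at 11.10, 11.24 and 11.23 in +/- arrays and 12.64, 12.97 and 12.30 in -/- arrays (1.45 ± 0.197, adjusted p = 0.000873). The fatty acid-binding protein genes Fabp4 and Fabp5 were at 5.48, 7.24 and 6.15 in +/- arrays and 9.08, 7.69 and 8.93 in -/- arrays (2.28 ± 0.419, adjusted p = 0.00808) and 7.98, 10.32 and 9.45 in +/- arrays and 11.72, 10.80 and 11.77 in -/- arrays (2.18 ± 0.453, adjusted p = 0.0186). In both, array 2 was the highest +/- and the lowest -/- array. The Fabp4 call ended without -/- array 1 and the Fabp5 call without -/- array 1 or -/- array 3. Apoe, the main apolipoprotein of macrophages, was at 1.22 ± 0.256 and Rxra, the partner of LXR and PPAR receptors, at 0.71 ± 0.146. Pparg, which drives Fabp4, was lower, at -0.69 ± 0.147. The calls of these 3 genes ended without +/- array 1, -/- array 1 or -/- array 3 for Apoe, without +/- array 1, -/- array 1 or -/- array 2 for Rxra and without +/- array 3, -/- array 1 or -/- array 3 for Pparg.

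Secreted and phagocytic proteins were among the largest rises. Mfge8, which bridges apoptotic cells to integrins for uptake, was at 7.87, 8.42 and 8.20 in +/- arrays and 11.45, 11.10 and 10.85 in -/- arrays (2.97 ± 0.190, adjusted p = 1.31e-06). Itgb3, the beta chain of an integrin that binds it, was at 0.90 ± 0.156. Both were called without any 1 array, and they were the 2 of 31 genes of efferocytosis and phagocytic receptors that rose. Without -/- array 2 there were 5.

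Of 28 matrix proteases, inhibitors and plasminogen activation genes 3 rose, and 1 did so without +/- array 2, +/- array 3 or -/- array 1. Mmp12, the macrophage elastase, was at 7.94, 7.76 and 7.87 in +/- arrays and 11.49, 10.19 and 10.62 in -/- arrays (2.91 ± 0.302, adjusted p = 8.38e-05). Plaur, the urokinase receptor, was at 8.96, 6.71 and 7.22 in +/- arrays and 9.92, 10.36 and 9.18 in -/- arrays (2.19 ± 0.457, adjusted p = 0.0193). +/- array 1 of Plaur stood above the other +/- arrays, and the call ended without +/- array 2, +/- array 3, -/- array 1 or -/- array 2. Mmp13, a collagenase, was at 1.31 ± 0.318 (adjusted p = 0.0437), and its call ended with 10 of the 12 single arrays left out. Ctsk, the collagen-degrading cathepsin of osteoclasts, was at 6.10, 7.28 and 6.34 in +/- arrays and 9.72, 7.71 and 9.62 in -/- arrays (2.44 ± 0.599, adjusted p = 0.0467), with -/- array 2 close to +/- array 2. Its call ended without +/- array 1, +/- array 3, -/- array 1, -/- array 3, +/- LPS array 1, +/- LPS array 3 or -/- LPS array 1.

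Other rises came from other lists or from none. Il1rl2, a receptor of IL-36, was even in both groups, at 5.24, 5.33 and 5.60 in +/- arrays and 7.86, 7.91 and 8.15 in -/- arrays (2.58 ± 0.227, adjusted p = 1.66e-05). Layn, a hyaluronan receptor, was at 2.31 ± 0.288, Plpp3, a lipid phosphatase, at 2.38 ± 0.339 and Tmem154, a membrane protein, at 2.33 ± 0.284. Ptger2, a prostaglandin E2 receptor, was at 5.89, 6.82 and 6.00 in +/- arrays and 8.76, 7.17 and 8.72 in -/- arrays (1.98 ± 0.452, adjusted p = 0.0308), and its call ended without +/- array 1, +/- array 3, -/- array 1 or -/- array 3. Tnfaip3, which encodes the NF-kB inhibitor A20, was at 7.60, 7.33 and 7.82 in +/- arrays and 9.28, 8.62 and 8.84 in -/- arrays (1.33 ± 0.201, adjusted p = 0.00198) and was called without any 1 array. It was the only riser among 41 LPS-inducible cytokines, enzymes and early factors (5 without -/- array 2), of which Cd69 (-1.35 ± 0.327, adjusted p = 0.0426) and Il1rn (-1.12 ± 0.261, adjusted p = 0.0337) fell. The Cd69 call ended without +/- array 1, +/- array 3, -/- array 1, -/- array 2, +/- LPS array 3, -/- LPS array 1 or -/- LPS array 3. The Il1rn call ended without +/- array 1, +/- array 3, -/- array 1, -/- array 2, -/- array 3, +/- LPS array 3 or -/- LPS array 3.

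Of 31 macrophage lineage factors and growth factor receptors 2 rose, the C/EBP genes Cebpa and Cebpb. Cebpd, which the list also names, was not among them. Cebpa was at 6.91, 7.51 and 7.43 in +/- arrays and 8.37, 8.70 and 8.27 in -/- arrays (1.16 ± 0.190, adjusted p = 0.00372) and Cebpb at 7.94, 8.40 and 8.03 in +/- arrays and 9.50, 8.79 and 9.43 in -/- arrays (1.12 ± 0.202, adjusted p = 0.00757). The Cebpb call ended without -/- array 1. Lyz1, a lysozyme gene in the list of macrophage markers, was at 1.92 ± 0.329. Of 17 clock genes Nr1d1, which encodes REV-ERBα, a repressor that works through NCoR and HDAC3, was at 6.72, 6.81 and 6.94 in +/- arrays and 7.61, 7.78 and 7.82 in -/- arrays (0.91 ± 0.146, adjusted p = 0.00323), and Bhlhe41 was at 1.45 ± 0.307. The Bhlhe41 call ended without +/- array 1, +/- array 3 or -/- array 1. Rara, a retinoic acid receptor that also recruits the complex, was at 0.87 ± 0.187 and was the only one called of 19 genes of retinoid, vitamin D and thyroid hormone signalling. Its call ended without +/- array 1, +/- array 2, +/- array 3, -/- array 2 or -/- array 3. Cox7a1 (0.93 ± 0.155) was the only one called of 26 oxidative phosphorylation subunits.

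In several lists no gene was called, which in lists this small is near the share of 2.66% called over all genes. These were the 24 genes of cholesterol and fatty acid synthesis (median 0.12), the 26 of alternative activation by IL-4 (0.03), the 20 of complement (0.02), the 34 of the cell cycle (-0.23), the 20 of the p53 and DNA damage response (-0.17) and the 22 of lysosome and V-ATPase (0.20). The smallest p in the cholesterol list was that of Mvd (1.17 ± 0.347, adjusted p = 0.107), for which -/- array 2 lay below the highest +/- array. At an unadjusted p under 0.05 limma gave 7, 4, 2, 3, 3 and 5 genes in these lists in turn. With array weights up to 4 genes of a list passed the adjusted threshold. Of 741 different genes in the 36 pathway lists 48 rose and 80 fell, and 195 and 208 of the called genes were in none of the lists.

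**Figure D4:**
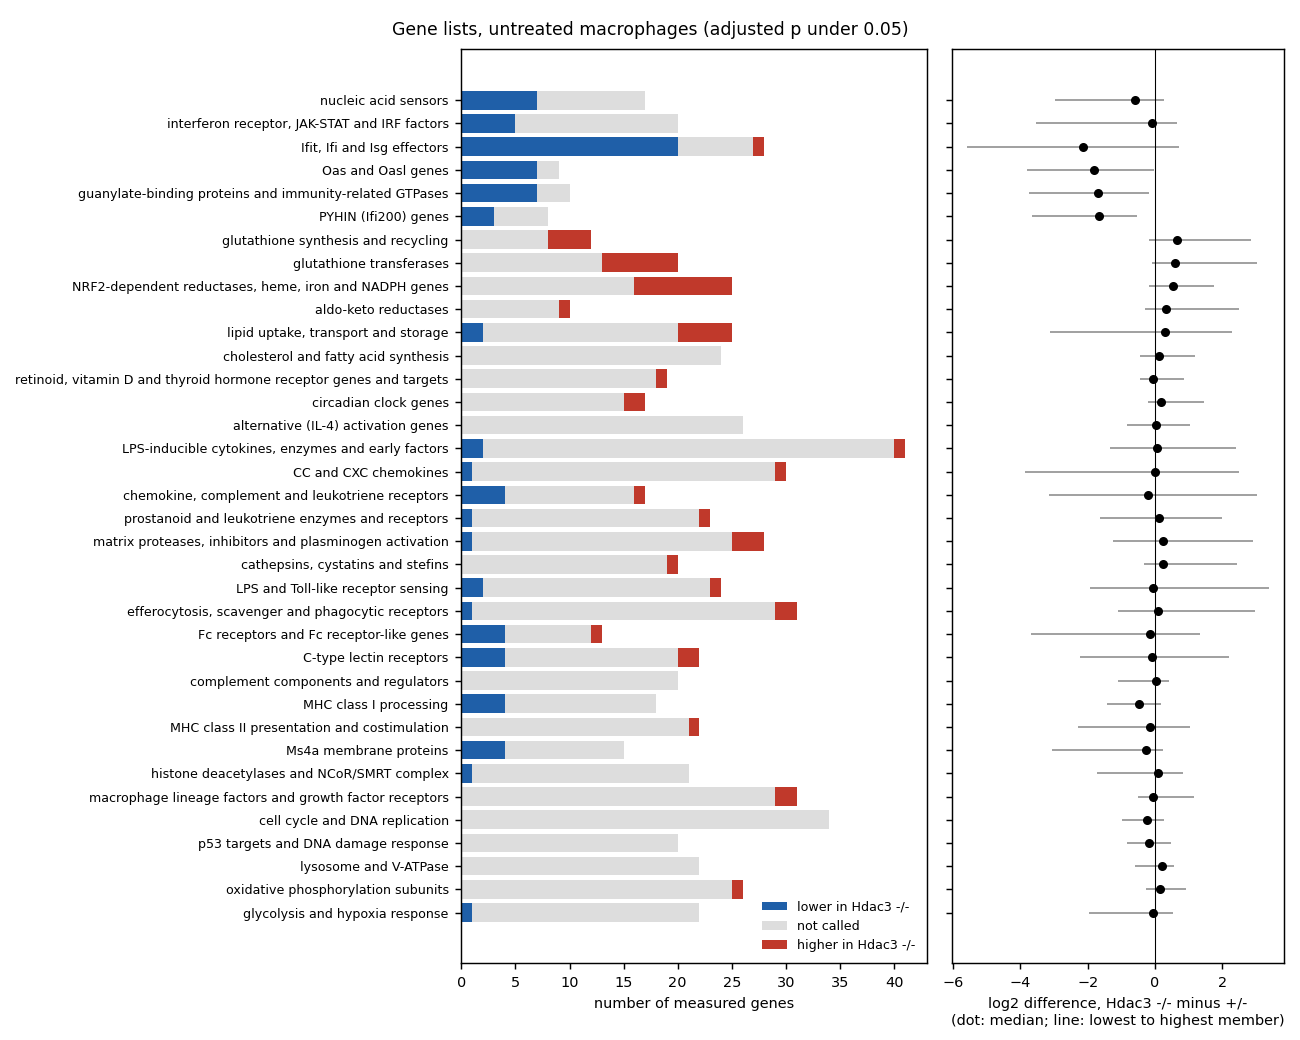
Left, the number of measured genes in each of 36 pathway lists that fell (blue), were not called (grey) or rose (red) in untreated Hdac3 -/- arrays; right, the median log2 difference (dot) and the lowest to highest member (line). The 6 interferon lists at the top hold blue bars of 3 to 20 genes and medians down to -2.14, and the 3 glutathione and NRF2 lists hold red bars of 4 to 9 genes and no blue.

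The same comparison was made in the LPS-treated arrays. They are other arrays, but +/- array 1 and +/- LPS array 1 alone carry Y-linked signal, so that arrays of one number may come from the same animal, and in the model all 12 arrays share each gene's spread. The counts of both treatments are therefore not shown to come from independent samples. After LPS 1932 genes were higher in -/- arrays (9.69% of all) and 1195 were lower (5.99%). Of the 243 genes that rose untreated 191 (78.6%) were also called higher, and they were 9.89% of those higher after LPS. Of the 288 that fell 219 (76.0%) were also called lower, and they were 18.3% of those lower after LPS. The sign was kept for 233 of the 243 and for 280 of the 288, against 45.1% of all genes with a positive and 54.9% with a negative difference after LPS. Called in the opposite direction after LPS were 3 of the genes that had risen and 0 of those that had fallen in limma, with 1 at an unadjusted p under 0.05. The median difference of both sets after LPS was 0.91 and -1.23. Without -/- array 1 the genes called in both treatments were 77 higher and 136 lower, without +/- array 1 they were 112 higher, and without the arrays with Y-linked signal 116 higher.

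The interaction term, the difference after LPS less that without it, was called for 216 genes, or 1.08% of all, and for 5 of the 243 and 27 of the 288. Rtp4 moved from -5.59 untreated to -2.11 after LPS (interaction adjusted p = 0.000474) and Cxcl10 from -3.85 to -1.07 (adjusted p = 0.00924). In +/- LPS arrays Cxcl10 was at 13.73, 13.64 and 13.77, near 13.65, the highest mean signal of any gene. The part of this upper limit in its smaller difference after LPS was not tested. Ms4a4c moved the other way, from -3.06 to -5.74 (adjusted p = 0.00442). Of the 27, 9 were nearer 0 or turned after LPS, and so were 4 of the 5 that had risen. Mmp13 turned from 1.31 to -1.24 (adjusted p = 0.0143). In place of these 32 interaction calls there were 13 without -/- array 1, 21 without +/- LPS array 3, 21 without -/- LPS array 1 and 19 without -/- LPS array 3.

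Of the 48 interferon genes that fell untreated limma called 45 higher with LPS than without it in +/- arrays and 46 in -/- arrays. Ifi27l2a was called in neither (0.04, adjusted p = 0.898, and 0.09, adjusted p = 0.881), and Irf9 was not called in +/- arrays (0.42, adjusted p = 0.0729). The 48 genes' mean signal rose to 10.58, 10.47 and 10.62 in +/- LPS arrays and to 8.67, 8.25 and 8.40 in -/- LPS arrays. For 29 of them the -/- mean after LPS was above the untreated +/- mean, and for all 48 it was below the +/- mean after LPS. Of the 91 genes of the interferon lists 69 were lower and 3 higher after LPS. In the glutathione and NRF2 lists 32 of 57 were higher and 1 was lower after LPS, and the interaction was called by limma for 0 of the 57, with 10 at an unadjusted p under 0.05. Gclc was at 3.70 after LPS against 1.76 untreated (interaction adjusted p = 0.0538), whereas Fabp4 was at 0.08 against 2.28 (interaction adjusted p = 0.104).

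**Figure D5:**
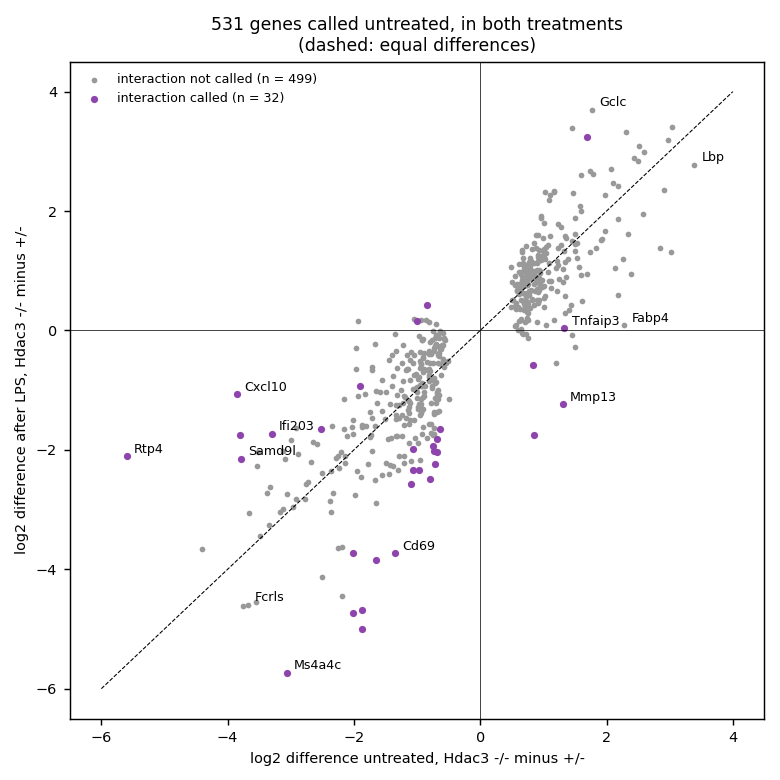
Log2 difference of Hdac3 -/- minus +/- without LPS (horizontal axis) and after LPS (vertical axis) for the 531 genes called untreated, 1 point per gene; purple points are the 32 genes with the interaction called and the dashed line marks equal differences. Most points lie in the lower left and upper right, and Rtp4 (-5.59 and -2.11) lies farthest above the line.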

How the data were processed

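Labelled cDNA of 12 cultures was hybridised to Affymetrix whole-transcript gene arrays. Each probe set has a log2 signal, which the authors normalized and summarised with RMA (affy package) before deposit, per the submitters' processing notes. Versions, settings, chip description and build: not given in the sources used here. RMA shrinks small signals, so fold changes of dim genes are understated. Of 28193 probe sets 21648 had 1 symbol in the platform annotation, 1313 several and 5232 none; 21561 matched RefSeq GRCm38.p6 by Entrez identifier. The brightest probe set stood for each of 19945 genes (954 had more than 1).

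limma 3.58.1 (R 4.3.3, lmFit and eBayes) was fitted to all 12 arrays with 4 group means, so that the groups share each gene's spread. Two-sided p-values were adjusted by Benjamini-Hochberg. The model was run on simulated data with independent noise in each array and gene. Those data held no effect of array, sex or culture, so the run does not show how the model fares with them. Python 3.11.15, pandas 2.3.3, numpy 2.4.6 and matplotlib 3.10.9 made tables and figures. Named genes were Hdac3, the 15 largest differences in each direction among called genes without overlap (predicted genes skipped), up to 4 called members per list or the 2 with the smallest p, and members of lists described by role. Other named genes, among them S100a8, were chosen after their values were seen. Members and the 48 lists were chosen with earlier results of these data known. Alternatives were other normalizations, fits and filters, a replicate block, and each array left out.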

Additional observations from a re-analysis of the deposited data

Results flagged for a closer look

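In 14 of the genes named here the genotype difference after LPS departed from that without LPS by the interaction term of limma at an adjusted p under 0.05, and the values here are the difference after LPS less that untreated. It was nearer 0 after LPS for Rtp4 (3.49), Cxcl10 (2.78), Oasl2 (2.05), Samd9l (1.64), Ifi203 (1.57) and Ifi207 (0.97), which were lower in Hdac3 -/- arrays in both treatments. It was further below 0 for Tnfsf10 (-3.13), Ifit3b (-2.80), Iigp1 (-2.73), Ms4a4c (-2.67), Cd69 (-2.38) and Ccnd2 (-3.08), of which Ccnd2, a cyclin gene, was not called untreated (-0.83, adjusted p = 0.109). Mmp13 (-2.55) turned from higher to lower, and Tnfaip3 (-1.29) from higher to 0.04. The interaction of Oasl2 ended without any 1 of 8 arrays, that of Ifi207 also of 8, that of Tnfaip3 of 10, that of Ifi203 of 6, that of Cd69 of 5 and that of Mmp13 without -/- LPS array 3 or -/- array 1. Those of Rtp4, Cxcl10, Samd9l, Tnfsf10, Ifit3b, Iigp1, Ms4a4c and Ccnd2 held without any 1 array.

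Of 6545 probe sets that carry several gene symbols or none, and so entered no count of genes, 97 differed between the untreated genotypes (1.48%), 33 higher and 64 lower.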

How the results depend on the processing

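No called gene changed sign under any of 24 alternatives, 22 planned and 2 chosen after seeing the data (the 2 arrays with Y-linked signal left out, and sex as a term). Of 97 named called genes 64 were called under every alternative that tested them. With the untreated arrays fitted alone 135 genes were higher and 186 lower, with 11 in the glutathione and NRF2 lists, and no LPS or interaction value can be had. With array weights 624 were higher and 562 lower, 160 higher by at least 2-fold, 31 in the glutathione and NRF2 lists, 446 higher and 351 lower in both treatments, and 126 with the interaction called. With the untreated and LPS arrays of one genotype and number taken as a random block, the interaction was called for 53. The labels do not state that such arrays belong together. Without the arrays with Y-linked signal 156 were higher, 11 in the glutathione and NRF2 lists and 116 higher in both treatments, while 234 were lower. Leaving out 1 array gave 99 to 265 higher genes, 167 to 341 lower, 63 to 140 higher and 140 to 209 lower by at least 2-fold, 47 to 50 lower interferon genes, 12 to 23 higher glutathione and NRF2 genes, 77 to 201 higher and 136 to 255 lower in both treatments, 13 to 44 interaction calls and an Hdac3 difference of -1.83 to -1.61. Without -/- array 1 there were 99, 167, 63, 12, 77, 136 and 13 of these in turn (higher, lower, higher by 2-fold, glutathione and NRF2, both treatments higher, both lower, interaction), and without +/- array 1 there were 146 higher, 13 glutathione and NRF2 genes and 112 higher in both. Replicate numbers were not shown to pair the arrays: deviations of same-numbered +/- and -/- arrays correlated at 0.0584, -0.472 and -0.148. With the replicate block 206 were higher and 288 lower. Dim genes limit precision, and 21 of the 288 lower genes had a -/- mean under 3.995, the highest lower quartile of an array, so their falls may be understated.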

Other observations

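Called genes outside the lists were looked at for their function and place, and those named here were chosen after their values were seen. Cd72, an inhibitory receptor of B cells and myeloid cells, was at 11.36, 11.43 and 11.45 in +/- arrays and 8.54, 7.96 and 8.57 in -/- arrays (-3.06 ± 0.163, adjusted p = 1.73e-07). H2-T24, a nonclassical MHC class I gene, was at -3.09 ± 0.312, Cd5l, the macrophage protein AIM, at -2.77 ± 0.518, Slc13a3, a dicarboxylate carrier, at -3.12 ± 0.594 and Tnfsf10, which encodes the death ligand TRAIL, at -1.87 ± 0.254. Among the rises, Bst1, an ectoenzyme of NAD metabolism, was at 2.14 ± 0.214, Tmem119, a microglial marker, at 1.79 ± 0.257 and Kdm6b, a histone H3K27 demethylase, at 5.52, 5.79 and 5.53 in +/- arrays and 6.80, 6.58 and 7.11 in -/- arrays (1.22 ± 0.215, adjusted p = 0.0063). All 8 were called without any 1 of the 12 arrays.

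Along the chromosomes 52 of the 288 genes that fell had a neighbouring gene that fell, and 31 of 242 placed genes that rose had one that rose. Over all tested genes 1.44% fell and 1.22% rose, and 19860 genes were placed. Whether called genes lie together more often than other genes was not tested. Runs of 3 or more were Ifit2, Ifit3 and Ifit3b; Pdlim5, Gbp5, Gbp7 and Gbp3; Parp14, Dtx3l and Parp9; Psmb9, Tap1 and Psmb8; Fcrls, Cd5l and Fcrl1; Slfn8, Slfn10-ps and Slfn2; and Chst7, Slc9a7 and Rp2 among the falls. Among the rises they were Slc22a4, Pdlim4 and P4ha2, Treml4, Treml2 and B430306N03Rik, and Ppp2cb, Ubxn8 and Gsr. The calls of Pdlim5, Psmb8, Slfn2, Chst7, Slc9a7, Rp2, Pdlim4, P4ha2, Treml4, Treml2, Ppp2cb and Ubxn8 each ended with at least 1 single array left out. Several runs are gene families whose copies may share probe signal.

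Of 297 microRNA genes tested 1 was called, against 2.66% of all genes. The median of their mean signals was 3.86, and 154 of them lay under 3.995, the highest lower quartile of an array. Mirlet7c-1 had signals of 5.28, 4.76 and 5.90 in +/- arrays and 3.48, 3.58 and 3.98 in -/- arrays (-1.63 ± 0.341, adjusted p = 0.0194), and was at -1.21 after LPS. Its call ended without +/- array 1, +/- array 3, -/- array 1 or -/- array 2. All 3 of its -/- signals were under 3.995, so the size of the fall rests on a dim signal. The probe set measures RNA of the gene, not the mature microRNA, which is shown from RefSeq (GRCm38.p6, chr16:77599672-77599693, + strand) with its seed, bases 2 to 8, in capitals.

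mmu-let-7c-5p: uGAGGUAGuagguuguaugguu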
